A study of Mus musculus with 32 samples.

Results

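The 10 immediate early response genes Fos, Fosb, Jun, Junb, Egr1, Atf3, Ier2, Ier3, Nr4a1 and Dusp1 were followed in every kidney of a study of treated lupus nephritis. Each was taken as the row that the array annotation pairs with its mouse symbol, and all 10 of 10 were measured, among 15780 named genes. RNA from 32 whole kidneys was hybridised to Affymetrix arrays, 1 array per kidney. NZB/W mice gave 26 of them and NZM2410 mice 6. Both strains are related and develop lupus nephritis without any induction. The 7 kidneys of the first group came from untreated NZB/W mice without proteinuria at 30 weeks of age. A further 8 NZB/W kidneys were taken in early remission after the triple therapy of CTX, CTLA4Ig and anti-CD154, and 6 in late remission after the same triple therapy. Late remission after Ad-TACI-Ig with CTLA4Ig was represented by 5 NZB/W kidneys. The 6 NZM2410 kidneys were in remission after Ad-BAFF-R-Ig. Ages of the treated mice are not given in the labels, no group of untreated nephritic mice was used here, and the NZM2410 group differed from every other group in strain and treatment together.

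Immediate early genes are transcribed within minutes of a stimulus from signalling proteins that are already in the cell, with no need for new protein. Fos, Fosb, Jun and Junb encode subunits of the AP-1 transcription factor, and Egr1, Atf3 and Nr4a1 encode a zinc finger factor, a stress-induced leucine zipper factor and an orphan nuclear receptor. Dusp1 encodes a phosphatase that switches MAP kinases off again, while Ier2 and Ier3 encode a nuclear protein and a regulator of cell survival. In kidney these genes respond to growth factors, ischaemia and mechanical or osmotic stress, and also to what happens to the tissue between the death of the animal and the freezing of the organ. Kidneys of the study were harvested under ketamine/xylazine anaesthesia after perfusion with saline, and the time from perfusion to freezing is not given in the sources used here.

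Many genes of this class carry the cAMP response element in their promoters. Promoters from RefSeq (GRCm38.p6) were found for 8 of the 10 members, and those of Egr1 and Ier2 were missing. The 250 bases before the annotated start are printed 5′ to 3′ on the strand of the gene for 5 of them. These are 4 members that moved together in the kidneys and Atf3, which followed them less closely. Capitals mark TGACG or its reverse complement CGTCA, the core of the cAMP response element, which all 5 hold.
Fos (chr12:85473640-85473889, plus strand): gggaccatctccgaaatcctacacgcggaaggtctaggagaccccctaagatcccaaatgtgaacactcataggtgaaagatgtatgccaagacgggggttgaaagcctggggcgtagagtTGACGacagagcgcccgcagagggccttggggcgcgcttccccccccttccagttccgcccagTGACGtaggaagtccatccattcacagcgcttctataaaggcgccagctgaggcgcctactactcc
Junb (chr8:84978749-84978998, minus strand): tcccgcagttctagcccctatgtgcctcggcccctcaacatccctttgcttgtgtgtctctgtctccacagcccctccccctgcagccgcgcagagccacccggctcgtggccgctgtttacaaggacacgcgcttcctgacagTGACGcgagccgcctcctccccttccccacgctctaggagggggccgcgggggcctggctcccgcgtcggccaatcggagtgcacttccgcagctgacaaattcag
Nr4a1 (chr15:101266596-101266845, plus strand): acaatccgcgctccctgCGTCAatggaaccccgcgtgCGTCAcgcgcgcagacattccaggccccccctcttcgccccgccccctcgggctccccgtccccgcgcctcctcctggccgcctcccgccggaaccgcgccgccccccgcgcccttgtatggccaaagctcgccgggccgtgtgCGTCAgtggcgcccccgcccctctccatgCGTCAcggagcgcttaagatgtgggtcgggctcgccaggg
Dusp1 (chr17:26508473-26508722, minus strand): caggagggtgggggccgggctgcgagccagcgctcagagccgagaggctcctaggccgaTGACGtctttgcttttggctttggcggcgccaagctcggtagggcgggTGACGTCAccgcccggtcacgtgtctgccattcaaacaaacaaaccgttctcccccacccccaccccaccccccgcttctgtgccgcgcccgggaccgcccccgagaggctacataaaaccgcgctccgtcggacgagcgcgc
Atf3 (chr1:191183334-191183583, minus strand): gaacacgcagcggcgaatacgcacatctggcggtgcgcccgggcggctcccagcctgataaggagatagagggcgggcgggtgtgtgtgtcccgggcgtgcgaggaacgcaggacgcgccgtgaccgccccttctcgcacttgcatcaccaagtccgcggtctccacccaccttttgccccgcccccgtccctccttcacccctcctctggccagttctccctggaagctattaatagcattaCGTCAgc
The letters TGACG, searched on both strands, were present in 6 of the 8 member promoters (Atf3, Fosb, Junb, Fos, Nr4a1 and Dusp1), against 17.8% of 32851 mouse promoter windows of the same length. Jun, which moved closely with Fos in the kidneys, held 0 copies, as did Ier3, and neither is printed. Nr4a1 held 4 copies at a start that lies inside the span of the gene, and Fos held 2. Dusp1 was the member with the full palindrome TGACGTCA, which 1.55% of all windows held and which accounts for 2 overlapping copies of TGACG there. The AP-1 motif TGANTCA and the CArG box of serum response factor were found in 0 of the 8 windows, against 6.75% and 1.47% of all windows. Bases farther upstream and the promoters of Egr1 and Ier2 were not searched, so the members cannot be said to lack these motifs. A match of letters is a description of the window and not evidence of binding.

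The arrays had medians between 7.02 and 7.16 on the log2 scale, and no pair of arrays correlated above 0.9973, so none was a copy of another. Among kidney markers, Slc34a1 of the proximal tubule was at 12.13 or higher in every kidney and Wt1 of the podocyte at 5.95 or higher. No detection call was made, and the lowest Wt1 value lies under the limit of the dimmest tertile of genes (6.07). Some kidneys stood apart. Replicate 2 of the 30-week group had the highest macrophage list mean of its group and an Lcn2 of 8.56 (others 5.81 to 7.50). Replicates 1 and 5 of the TACI-Ig group had Gapdh 3′ minus 5′ control signals of 0.42 and 0.37 (others -0.06 to 0.18), a measure of RNA integrity on these arrays. Replicate 3 of the NZM2410 group had Havcr1 at 9.43 and Lcn2 at 10.14. For every gene, moreover, the average over the 6 late triple therapy kidneys lay within 0.0255 log2 units of the average over the 30-week and TACI-Ig kidneys pooled (12 kidneys), and within 0.0108 for the members, so every comparison with the late triple therapy group follows from the means of other groups and is not independent evidence. Whether the batch correction bears on this was not tested. The mouse code of 30-week replicate 6 is also that of early remission replicate 1.

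Fos was the member that varied most from kidney to kidney. Its log2 value ran from 6.38 through a median of 8.05 to 9.62 in the 30-week kidneys, and from 6.33 through 7.96 to 9.94 in early remission. After TACI-Ig with CTLA4Ig the 5 kidneys had Fos at 5.78, 6.94, 6.15, 8.58 and 6.80. In late remission after triple therapy Fos ran from 6.29 through 7.24 to 9.62, and in NZM2410 kidneys from 7.45 through 8.29 to 9.39. Every group overlapped every other, and 4.16 log2 units separated the lowest kidney (TACI-Ig replicate 1) from the highest (early remission replicate 2). Within the 4 NZB/W groups the SD of Fos was 1.15 log2 units, the 20th largest of the 15780 genes.

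Egr1 had the same shape. It ran from 8.36 to 10.24 at 30 weeks (median 9.35), from 7.90 to 11.02 in early remission (median 9.15) and from 8.32 to 10.46 in late remission after triple therapy (median 8.94). The 5 TACI-Ig kidneys had 7.67, 8.36, 8.55, 10.97 and 8.45, so 1 kidney was far above the other 4. NZM2410 kidneys lay between 8.37 and 10.73 (median 9.65). The within-group SD of Egr1 was 0.96, rank 37 of all genes.

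Jun, the partner of Fos in AP-1, ranged from 7.27 to 9.73 over the 32 kidneys with a within-group SD of 0.50. Junb, which restrains Jun in many settings, ranged from 6.71 to 8.55 with an SD of 0.45. Fosb was the one member among the dimmest tertile of genes (mean under 6.07), with a mean of 4.70, a range of 3.73 to 5.50 and an SD of 0.22. Its range is therefore not set against those of the other members.

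Nr4a1 ranged from 7.85 to 9.96 and Dusp1 from 9.22 to 11.49, with within-group SDs of 0.57 and 0.60. Ier2 ranged from 7.10 to 8.68 and Ier3 from 9.14 to 11.29, with SDs of 0.42 and 0.46. Atf3, the factor most tied to stress, ranged from 5.49 to 7.26 with an SD of 0.33. The median within-group SD of the members was 0.479, against 0.145 over all genes, and 9 of the 10 members (all but Fosb) were above the 90th percentile of all genes.

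**Figure D1:**
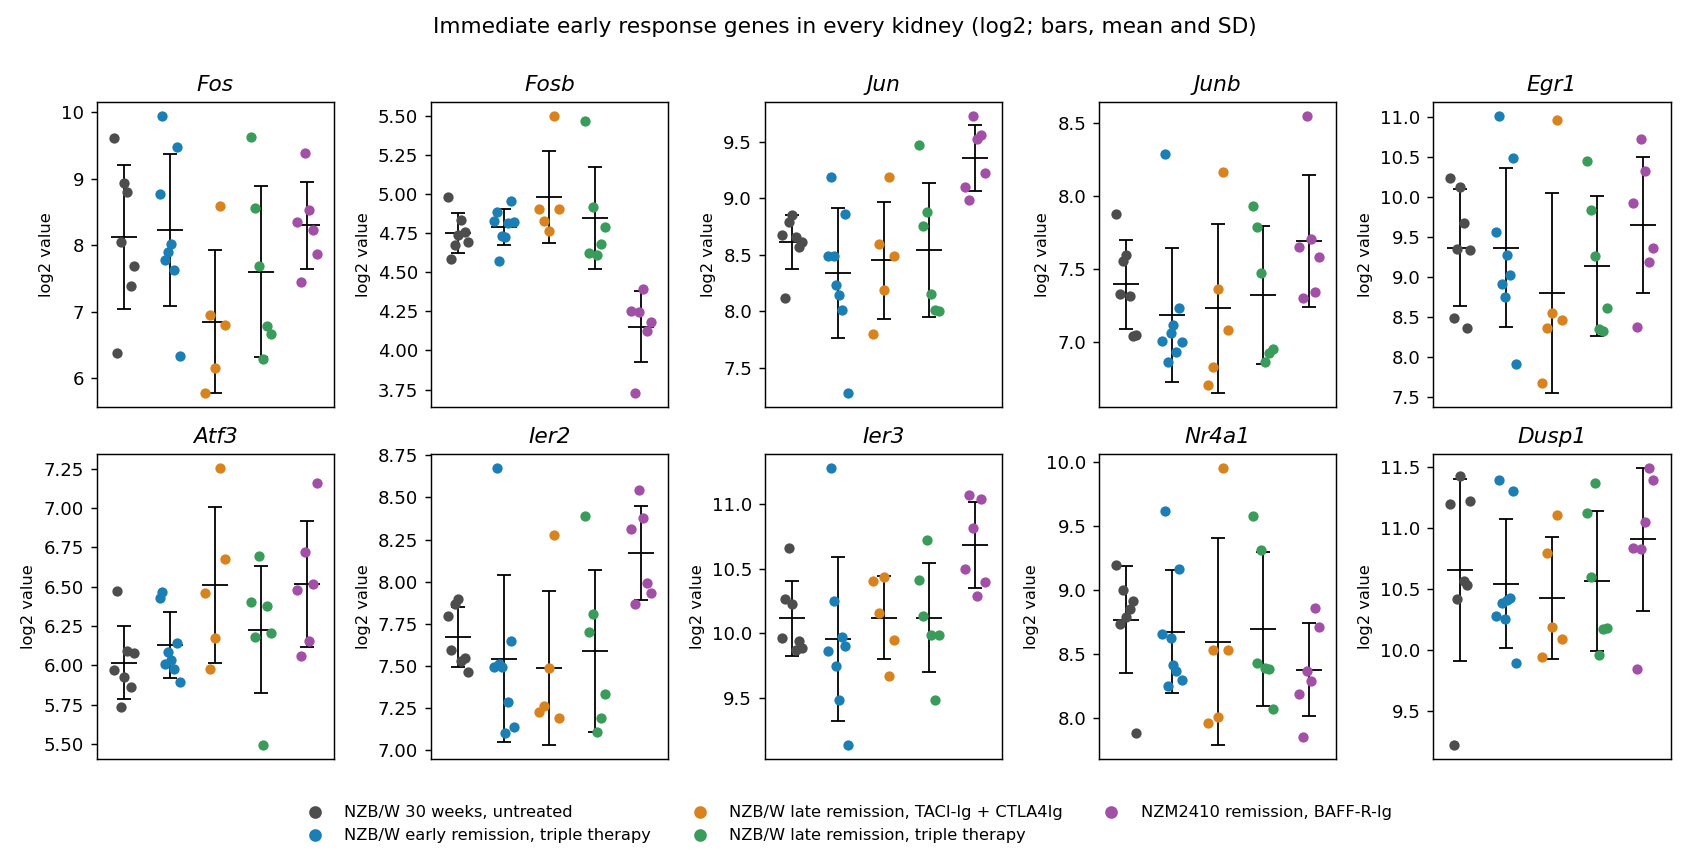
Log2 value of each of the 10 members (1 panel each, with its own vertical axis) in each kidney (points, coloured by group), with the group mean and SD as black bars. For several members 1 kidney of a group stands well above the rest, as TACI-Ig replicate 4 does for Egr1 at 10.97. Neighbouring group means lie within their pooled SD for Fos, Junb, Egr1, Atf3, Nr4a1 and Dusp1. The NZM2410 mean lies farther from its neighbour than that for Fosb, Jun, Ier2 and Ier3.

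Most of the spread lay within groups. Of the variance of a member over the 26 NZB/W kidneys, a median of 4.71% lay between the 4 groups, against 12.5% for all genes. The largest shares were those of Atf3 (23.6%) and Fos (19.2%), and the smallest those of Nr4a1 (1.20%) and Dusp1 (1.89%). Ordering the 5 groups by their means, neighbouring groups differed by less than their pooled SD for Fos, Junb, Egr1, Atf3, Nr4a1 and Dusp1 at every step. A step larger than the pooled SD was seen between the NZM2410 group and its neighbour for Jun, Ier2 and Ier3, where NZM2410 kidneys were highest, and for Fosb, where they were lowest.

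A few kidneys carried high values of nearly all members at once. Early remission replicate 2 was the highest of its 8 kidneys for 9 of the 10 members, the exception being Fosb, and it lay above the group median for all 10. TACI-Ig replicate 4 was the highest of 5 for 9 members and the lowest for Ier3. Late triple therapy replicate 6 was the highest of 6 for 7 members, and replicate 8 for the other 3 (Atf3, Ier3 and Dusp1). In the 30-week group no kidney dominated to that extent, with replicate 1 highest for 5 members and replicate 4 for 3.

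Other kidneys were low throughout. Early remission replicate 8, TACI-Ig replicate 1 and late triple therapy replicate 9 were each the lowest of their group for 6 members. NZM2410 replicate 2 was the lowest of 6 for 9 members and the highest for Ier3. The mean of the 10 members, each centred on its mean over all kidneys, thus ran from -0.76 to 0.95 in early remission, from -0.64 to 0.74 after TACI-Ig, from -0.61 to 0.76 in late remission after triple therapy, from -0.41 to 0.43 at 30 weeks and from -0.27 to 0.67 in NZM2410 kidneys.

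**Figure D2:**
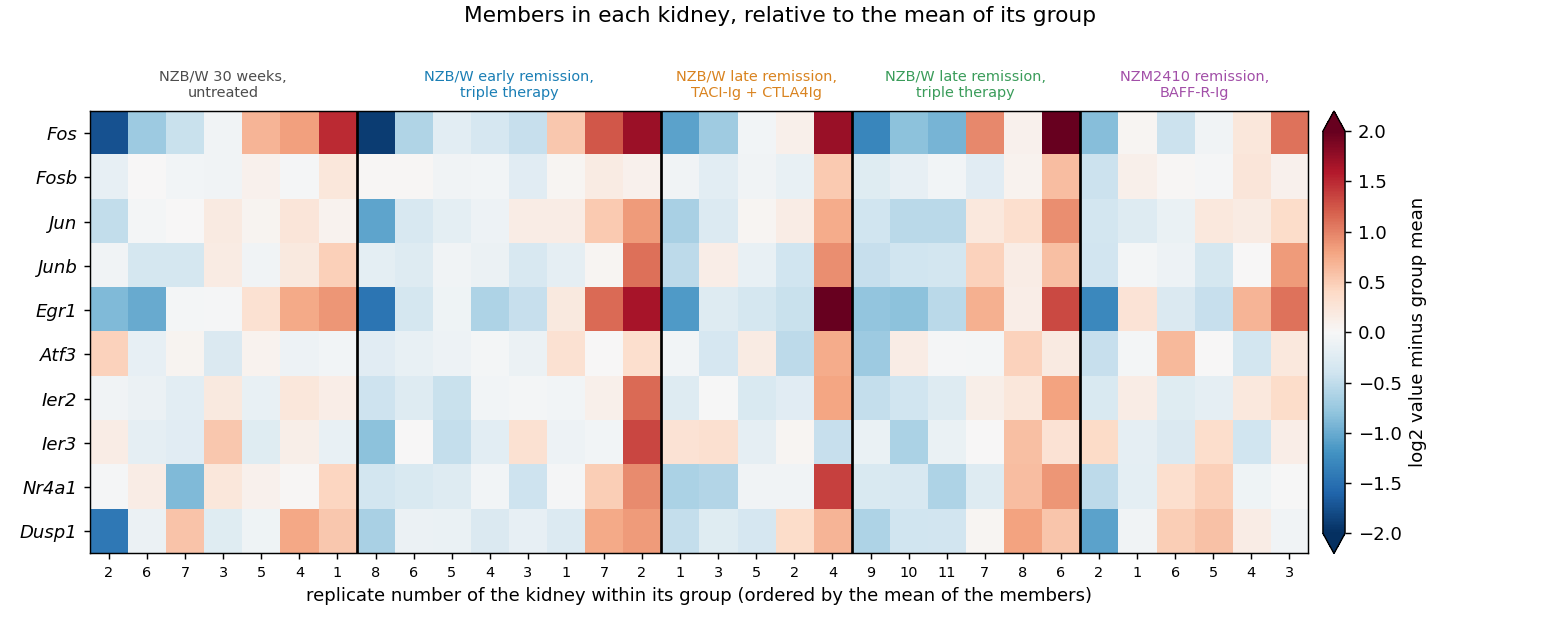
Log2 value of each member (rows) in each kidney (columns, labelled by replicate number and ordered by the mean of the members within each group) minus the mean of its group; the colour scale ends at 2 log2 units. Kidneys at the right of each group, such as early remission replicate 2 and TACI-Ig replicate 4, are red for most members, and Ier3 and Atf3 follow the other rows least closely.

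The members were co-expressed across kidneys within groups. With the mean of each group removed, all 45 pairs of members had a positive Pearson correlation over the 26 NZB/W kidneys, with a median r of 0.63, and 34 of 45 passed a two-sided permutation test within groups at an adjusted p of 0.05 (Benjamini-Hochberg over the 45 pairs). By Spearman's rho 32 of 45 passed, with a median rho of 0.58. The genes were listed together with earlier results of these data known, so these counts describe the list and are not an independent finding.

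Fos and Egr1 were the closest pair (r = 0.94, rho = 0.94, n = 26, permutation p = 1e-05, the smallest the permutations can give, adjusted p = 7.5e-05), and r was 0.92 or higher in each of the 5 groups taken alone. Fos and Jun had r = 0.90 (rho = 0.90, adjusted permutation p = 7.5e-05), and Junb and Ier2 had r = 0.90 (rho = 0.82, adjusted permutation p = 8.2e-05). Jun with Egr1 reached 0.87 and Junb with Egr1 0.86. All 28 pairs that involved neither Ier3 nor Atf3 passed, the lowest being Fosb with Dusp1 at r = 0.55. Dusp1, whose product ends MAP kinase signalling, was correlated with Fos at 0.80, Jun at 0.78 and Egr1 at 0.77.

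With the 4 NZB/W groups pooled, Ier3 and Atf3 stood outside this block. Ier3 passed in 2 of its 9 pairs, with Ier2 (r = 0.61, adjusted permutation p = 0.016) and Jun (r = 0.49, adjusted permutation p = 0.041), and its r with Fosb was 3.23e-05. Leaving out TACI-Ig replicate 4, the kidney where Ier3 was lowest while 9 members were highest, raised r between Ier2 and Ier3 to 0.82, and leaving out early remission replicate 2 lowered it to 0.34 with an adjusted permutation p of 0.18. Atf3 passed in 4 of its 9 pairs, and r with Nr4a1 (0.55, adjusted permutation p = 0.025) fell below the threshold when any of 4 kidneys was left out (early remission replicate 2, TACI-Ig replicates 3 and 4, or late triple therapy replicate 8), to an r as low as 0.35. Without the late triple therapy group, Ier2 with Ier3 (r = 0.58) and Atf3 with Nr4a1 (r = 0.56) both lost their call (adjusted permutation p = 0.074 for each). In the 30-week kidneys alone Atf3 ran against Jun (r = -0.86, n = 7, not tested).

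**Figure D3:**
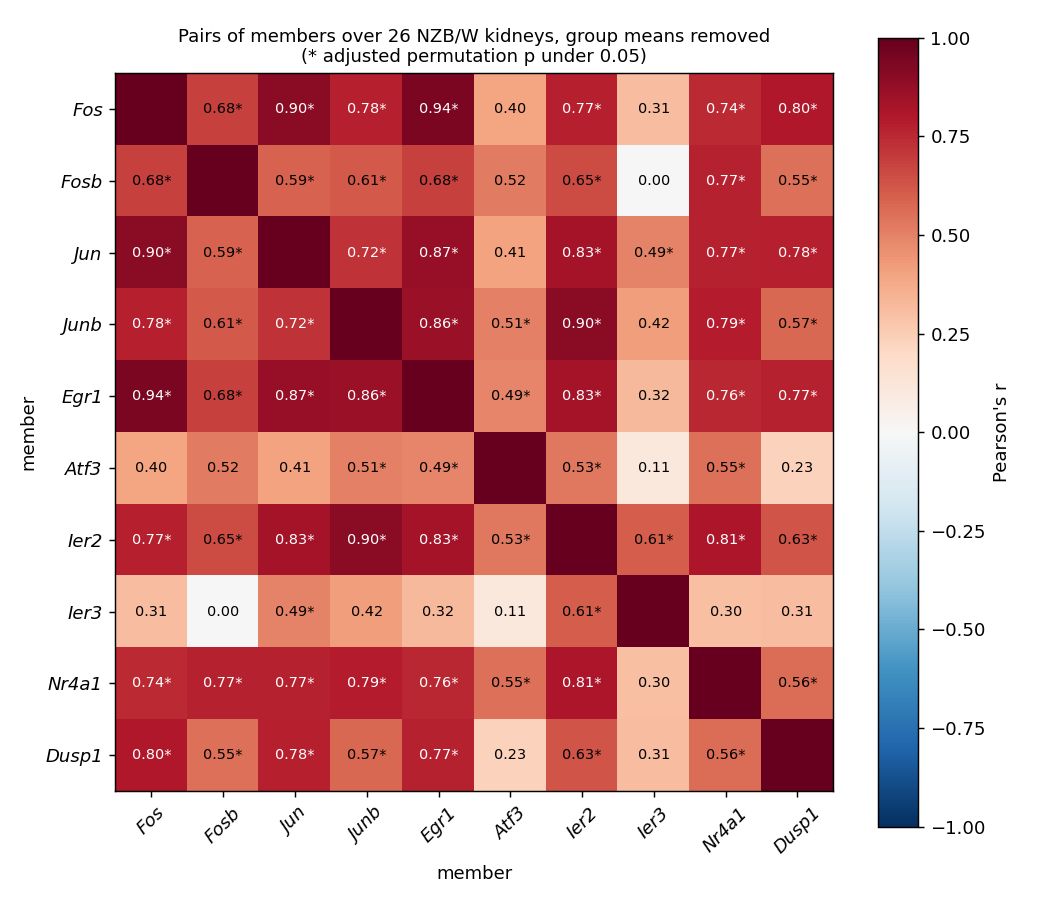
Pearson's r of every pair of members over the 26 NZB/W kidneys with group means removed (colour and number; asterisk, adjusted permutation p under 0.05). Values from 0.55 to 0.94 fill the block of 8 genes without Ier3 and Atf3, whose rows are paler.

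The count of pairs was lower without the most extreme kidneys. These were picked by the members' own values, which narrows their range and tends to lower r, so no conclusion is drawn from the drop. Without the 2 kidneys farthest from the median of the members' mean, 25 of 45 pairs passed with a median r of 0.55, and with the 2 kidneys farthest from the median of the first gene of each pair left out the median r was 0.43. Without early remission replicate 2, TACI-Ig replicate 4 and late triple therapy replicate 6, chosen after their values were seen, 18 of 45 passed with a median r of 0.45. Leaving out single kidneys gave 28 (without early remission replicate 2) to 38 pairs (without 30-week replicate 2). Within groups taken alone, the median r over the 45 pairs was 0.36 at 30 weeks (31 pairs positive), 0.76 in early remission (45 positive), 0.80 after TACI-Ig (36 positive), 0.75 in late remission after triple therapy (45 positive) and 0.38 in NZM2410 kidneys (33 positive). These differences between groups were not tested.

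The rest of the genome followed the members to a small extent. For Fos, Jun, Junb, Egr1 and Ier2, no gene outside the members correlated more closely with the mean of the other 9 members than the gene itself did (r = 0.91, 0.92, 0.86, 0.94 and 0.90). Nr4a1 (0.81) and Dusp1 (0.75) had rank 3, Fosb (0.70) rank 9, and Atf3 (0.48) and Ier3 (0.38) ranks 331 and 830.

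Among genes outside the list, the closest to the mean of the 10 members over the 26 NZB/W kidneys were Btg2 (r = 0.86), an antiproliferative gene, and Zfp36 (0.83), whose product destabilises AU-rich mRNAs. Ccn1 (0.75), a secreted matrix protein, Klf2 (0.75), a transcription factor sensitive to shear stress, and Rasd1 (0.74), a small GTPase, came next. They were followed by Alkbh6 (0.72), Hes1 (0.70), Mtss1 (0.70), Rnf113a2 (0.69) and the tight junction gene Cldn4 (0.68). Over the 6 NZM2410 kidneys r was 0.82 for Btg2, 0.73 for Zfp36, 0.69 for Cldn4 and 0.50 for Klf2, 0.45 for Rasd1, 0.27 for Hes1 and 0.21 for Ccn1, but -0.40 for Mtss1, -0.58 for Alkbh6 and -0.66 for Rnf113a2.

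Of 58 measured genes of a wider list of immediate early and primary response genes, 18 (31.0%) correlated with the members' mean at r above 0.5, against 222 of all 15770 non-members (1.41%). Besides Btg2, Zfp36, Ccn1, Klf2, Rasd1 and Hes1, which are among the 10 closest genes above, they included Plk3 (0.62), Hbegf (0.61), Arc (0.58), Dusp6 (0.57) and Myc (0.56). Other genes of that list had negative r over the NZB/W kidneys, such as Nr4a3 (r = -0.47), Dusp2 (-0.31) and Egr3 (-0.28), which are close relatives of members. Over the 6 NZM2410 kidneys r was 0.73 for Nr4a3, 0.89 for Dusp2 and -0.04 for Egr3. Of 20 genes for upstream kinases and transcription factors, such as Srf, Elk1 and Creb1, 0 were above 0.5 (median r 0.17). These are descriptions over 26 kidneys that share the removal of group means, and they were not tested.

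No member passed the test in the 5 comparisons made among NZB/W groups, which did not include early remission against TACI-Ig. Between early remission and 30 weeks the 10 log2 differences ran from -0.27 (Jun) to 0.11 (Atf3) with a median of -0.10, against a median of 0.02 over all genes. By limma, 0 of 10 members and 0 of 15780 genes (0%) had an adjusted p under 0.05, while 1386 genes (8.78%) and 0 members had an unadjusted p under 0.05. Fos was 8.23 ± 1.14 (SD, n = 8) in early remission and 8.12 ± 1.09 (n = 7) at 30 weeks, a difference of 0.10 with a 95% interval of -0.98 to 1.18. Differences of that size in either direction are thus not excluded for Fos.

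After TACI-Ig with CTLA4Ig, Fos was 6.85 ± 1.08 (n = 5), lower than at 30 weeks by a log2 difference of -1.27 (SE 0.54, interval -2.42 to -0.12). The groups overlapped, since replicate 4 with 8.58 lay above the 30-week median, and the adjusted p was 0.22 by limma (unadjusted p = 0.032). Leaving out single kidneys gave differences from -1.71 (without TACI-Ig replicate 4) to -1.01 (without TACI-Ig replicate 1, one of those with a high Gapdh control signal), with adjusted p by limma from 0.084 to 0.50. Atf3 moved the other way, with 6.51 ± 0.50 against 6.02 ± 0.23, a difference of 0.49 (SE 0.18, adjusted p = 0.21, unadjusted p = 0.018 by limma). Of the alternatives tried, it passed the threshold when TACI-Ig replicate 2 was left out (0.62, adjusted p = 0.048 by limma), where 1309 genes were called in place of 0.

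The 10 differences after TACI-Ig had a median of -0.17, against 0.04 for all genes, and 0 of 10 members and 0 of 15780 genes (0%) were called by limma. At an unadjusted p under 0.05 there were 2 members, Fos and Atf3, and 3208 genes (20.3%). The RNA control signals named above were highest in 2 of these 5 kidneys, replicates 1 and 5, in which Fos was 5.78 and 6.80. Their part in the Fos difference was not tested.

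In late remission after triple therapy, 0 of 10 members differed from the 30-week kidneys by limma, as did 0 of 15780 genes (0%, with 46 at an unadjusted p under 0.05). Fos was 7.60 ± 1.29 (n = 6), a difference of -0.52 (interval -1.72 to 0.68), and the members' median was -0.07. Compared with early remission after the same drugs, the members' median was 0.05, from -0.63 (Fos) to 0.21 (Jun). Here 0 of 10 members were called among 11 of 15780 genes (0.0697%), 0 members had an unadjusted p under 0.05 against 5.31% of genes, and 0 members had groups without overlap against 0.253%. Compared with late remission after TACI-Ig, the median was 0.10, from -0.28 (Atf3) to 0.75 (Fos), and 0 of 10 members were called among 12 genes (0.076%). Of those 12, 4 were the adrenal cortex genes Cyp21a1, Cyp11b1, Cyp11a1 and Star, and 3 were the adrenal medulla genes Chgb, Chga and Th. The 3 comparisons of this group share its kidneys, and all 3 are bound by the equality of means described above, the one with early remission included.

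NZM2410 kidneys after BAFF-R-Ig differed from the NZB/W kidneys after TACI-Ig in 5 of 10 members by limma, beside 9388 of 15780 genes (59.5%), so the members' share was no higher than that of the genes at large. Of the members 4 were higher, against 28.6% of genes, and 1 lower, against 30.9%, and at an unadjusted p under 0.05 there were 5 members and 63.6% of genes. Strain and treatment cannot be told apart here. The Gapdh 3′ minus 5′ control signal, the measure of RNA integrity, also separated these groups. It was -0.11 or lower in every NZM2410 kidney and -0.06 or higher in every TACI-Ig kidney, while the beta-actin signals of the groups overlapped. The part of RNA integrity in these differences was not tested. Fos was 8.30 ± 0.65 (n = 6) against 6.85 ± 1.08 (n = 5), a rise of 1.45 log2 units (SE 0.44, adjusted p = 0.012) or 2.73-fold. Jun was 9.35 ± 0.29 against 8.45 ± 0.52, a rise of 0.90 (SE 0.21, adjusted p = 0.0024).

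Ier2 rose by 0.68 (SE 0.19, adjusted p = 0.0076) and Ier3 by 0.56 (SE 0.17, adjusted p = 0.013). In each of these 4 genes the groups overlapped. Ier3 lost its call when the arrays were quantile normalized again (0.39, adjusted p = 0.092 by limma). Fosb fell by 0.83 (SE 0.14, adjusted p = 0.00023), and the NZM2410 kidneys, at 3.73 to 4.39, lay wholly below the TACI-Ig kidneys at 4.77 to 5.50. In 38.5% of all genes these 2 groups did not overlap, and Fosb, with its dim probe set, was the single member among them.

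Egr1 (0.86, interval -0.29 to 2.0), Junb (0.46, -0.11 to 1.02), Dusp1 (0.48, -0.13 to 1.09), Nr4a1 (-0.22, -0.88 to 0.44) and Atf3 (0.01, -0.49 to 0.50) were not called. Without TACI-Ig replicate 4, Egr1 reached 1.40 (adjusted p = 0.0075 by limma) and Junb 0.69 (adjusted p = 0.015 by limma). Without NZM2410 replicate 2, Dusp1 reached 0.69 (adjusted p = 0.018 by limma). At the other end Junb was 0.29 without NZM2410 replicate 3, and without TACI-Ig replicate 1 Egr1 was 0.57 and Dusp1 0.36. The count of members called was thus 7 and 6 in those cases, and 4 when Ier3 lost its call or Fosb was dropped with the dimmest tertile of genes.

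**Figure D4:**
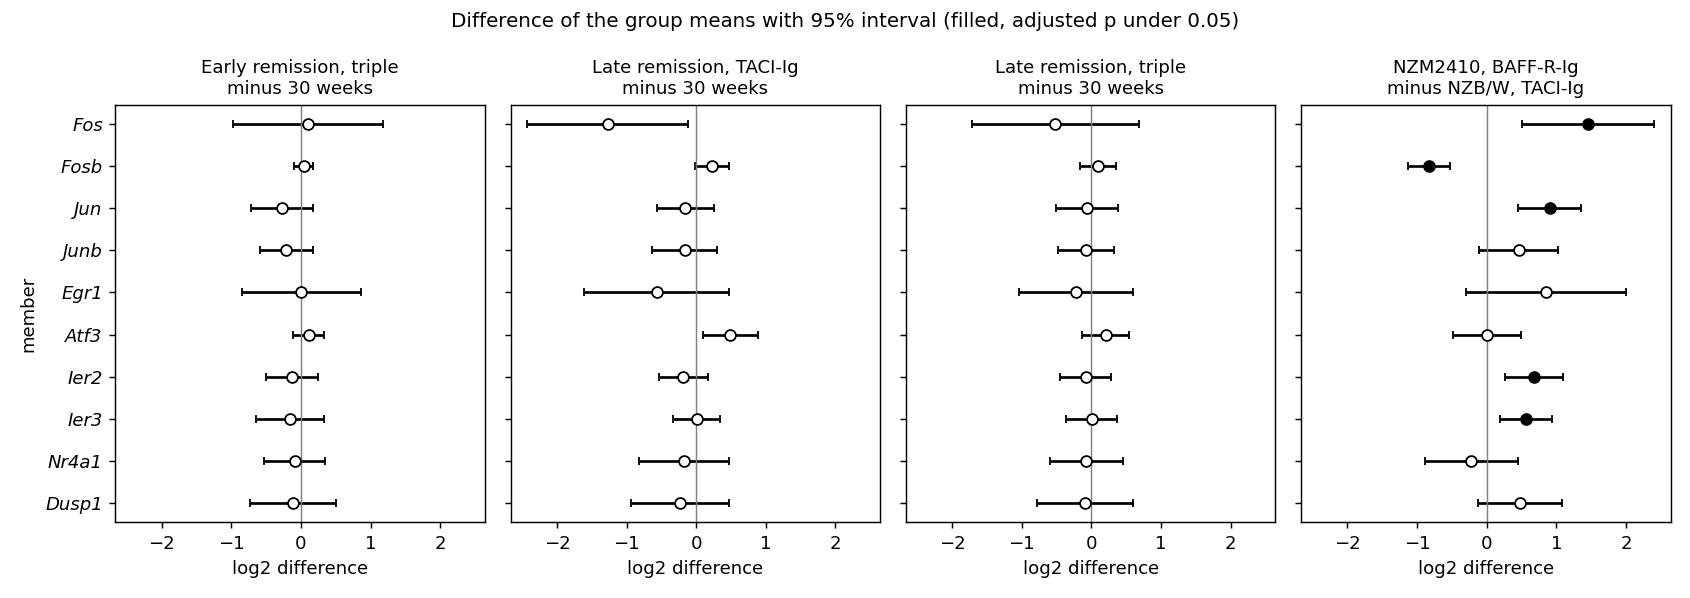
Log2 difference of group means with its 95% interval for each member (rows) in 4 of the 6 comparisons (panels); filled points have an adjusted p under 0.05 by limma. The intervals of Fos and Egr1 are the widest, and of these panels filled points appear in the comparison across strains alone, from -0.83 for Fosb to 1.45 for Fos.

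The wider list also gave no call among NZB/W groups, and its median went the way of the members' in some comparisons and not in others. Between early remission and 30 weeks it was -0.03, where that of the members was -0.10. For late against early remission after triple therapy it was 0.07, where that of the members was 0.05. After TACI-Ig the median difference of the wider list was 0.13, where that of the members was -0.17. There 41 of its 58 genes were positive, against 9261 of all 15780. By limma 18 of the 58 had an unadjusted p under 0.05, against 20.3% of all genes. In NZM2410 kidneys the median of the wider list was -0.03, where that of the members was 0.52. In the 5 comparisons among NZB/W groups 0 of its 58 genes and 0 of 20 upstream genes were called by limma. The largest differences after TACI-Ig were those of Sgk1 (0.81, SE 0.20), a kinase induced by glucocorticoids and salt, Klf6 (0.73, SE 0.22) and Per1 (0.64, SE 0.27), with adjusted p from 0.20 to 0.22. In NZM2410 kidneys 12 of the 58 were higher and 9 lower, a share below the 59.5% of all genes. Ccn1 (1.14), Myc (0.85) and Errfi1 (0.80) were among those higher and Arc (-1.06), Jund (-0.94), Egr3 (-0.61) and Nr4a3 (-0.56) among those lower. Of the upstream genes 7 were higher, led by Mapk9 (0.70) and Braf (0.57), and 4 lower, led by Mrtfb (-0.49).

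The members were then set against markers of injury and of handling. Havcr1 encodes the kidney injury molecule of damaged proximal tubule, and Lcn2 a lipocalin made by injured tubules and by neutrophils. Heat shock genes mark stressed tissue, and adrenal, red cell and macrophage genes mark other tissue or cells carried with the kidney. In bulk RNA, fewer cells of a type and less RNA per cell cannot be told apart. By the same permutation test, 0 of the 60 relations of the 10 members with these 6 measures passed after Benjamini-Hochberg adjustment, by r or by rho, and 4 had an unadjusted p under 0.05 by r.

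Havcr1 bore no steady relation to the members, with r from -0.34 (Ier3) to 0.33 (Nr4a1), a median of 0.004 and 5 of 10 positive. The kidneys with the highest members went both ways. TACI-Ig replicate 4 had by far the highest Havcr1 of its group, 9.73 against 8.34 to 8.69 in the others. Early remission replicate 2, with the highest members of all, had the lowest Havcr1 of its group at 8.26. Late triple therapy replicate 9, where 6 members were lowest, had the highest Havcr1 of its group at 9.80.

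In NZM2410 kidneys the single kidney with high Havcr1 (replicate 3, 9.43 against 6.69 to 7.25) was the highest for Fos, Jun, Junb, Egr1 and Ier2. With 1 such kidney this is a value and not a relation. NZM2410 replicate 2, low in 9 members, had Havcr1 at 6.83, inside the range of the other 4.

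Lcn2 was related most closely to Atf3 (r = 0.56, permutation p = 0.010, adjusted p = 0.21; rho = 0.61, adjusted p = 0.077), with positive r in all 5 groups (0.81, 0.75, 0.27, 0.78 and 0.75 from the 30-week to the NZM2410 group). Leaving out the 2 kidneys farthest from the median of Lcn2 gave r = 0.53. Without TACI-Ig replicate 4, in which Atf3 was 7.26 and Lcn2 7.49, the relation passed (r = 0.74, adjusted permutation p = 0.0018), and it passed also without the 2 kidneys farthest from the median of the members' mean (r = 0.72, adjusted permutation p = 0.0084). Over the other members r with Lcn2 ran from -0.18 (Dusp1) upward, with a median of 0.13 over all 10.

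Dusp1 was lower where macrophage and dendritic cell genes were higher (r = -0.59, permutation p = 0.0049, adjusted p = 0.19) and where red cell genes were higher (r = -0.55, permutation p = 0.0062, adjusted p = 0.19), and neither relation passed. Leaving out single kidneys moved the first from -0.68 (without early remission replicate 2) to -0.42 (without 30-week replicate 2). That kidney had Dusp1 at 9.22, where the other 30-week kidneys had 10.42 to 11.43, and a macrophage list mean of 1.38, where they had -0.44 to 0.23. The red cell measure held 2 genes, Alas2 and Slc4a1, and all 10 members had negative r with it.

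Heat shock genes had r between -0.03 and 0.33 with the members, and adrenal cortex genes between -0.28 and 0.29. Single groups differed in sign. From the 30-week to the NZM2410 group, r of Fos with heat shock genes was -0.08, 0.25, 0.03, 0.87 and -0.52. With adrenal cortex genes r of Fos was -0.10, 0.30, -0.83, -0.53 and 0.77 in the same order. Values of single groups were not tested. Adrenal RNA was plain in 5 of the 7 kidneys at 30 weeks (list mean 1.79 to 2.08) and near absent in the other 2 (-0.70 and -1.12). Of these 7, replicates 1 and 4 had the highest members' means, 0.43 and 0.33, and they lay on opposite sides of that divide. Early remission kidneys were also divided, with adrenal cortex list means from -1.44 to 1.70. The highest of these belonged to replicate 2, which had the highest members' mean of all (0.95), while replicate 7, with a members' mean of 0.39, had -0.76. Among late triple therapy kidneys (0.03 to 0.33), replicate 6 had the highest members' mean and the lowest adrenal cortex list mean. In the TACI-Ig and NZM2410 groups adrenal cortex genes were low in every kidney (list mean -1.26 to -1.0), while Fos ran from 5.78 to 8.58 and from 7.45 to 9.39 there.

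RNA integrity was tested in the same way with the 3′ minus 5′ control signals of Gapdh and beta-actin, a family of 20 relations added after the data were seen. Of these, 0 passed, and the closest was Dusp1 with Gapdh (r = -0.45, permutation p = 0.017, adjusted p = 0.34). Of the 3 kidneys with the highest members, early remission replicate 2 had a beta-actin signal of 1.01 (others of its group 0.67 to 0.82), late triple therapy replicate 6 had 0.98 (others 0.72 to 0.97) and TACI-Ig replicate 4 had 0.86 (others 0.66 to 1.5). The Gapdh signal of the same kidneys was 0.09 (others -0.04 to 0.17), 0.05 (the lowest of its group, others 0.06 to 0.21) and 0.18 (others -0.06 to 0.42). The time and manner of handling of single kidneys were not recorded in the labels, so their part in the shared high values of the members was not tested.

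**Figure D5:**
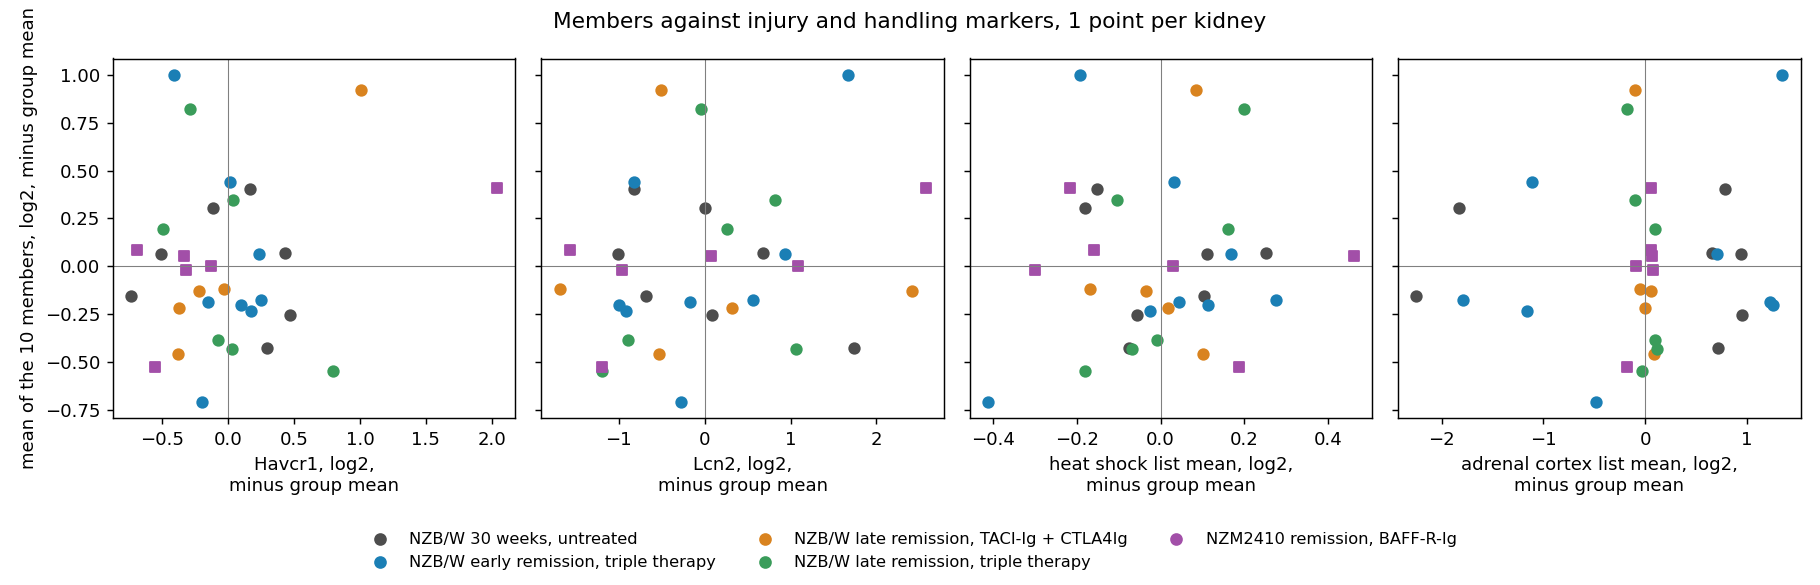
Mean of the 10 members in each kidney minus its group mean (vertical, log2) against Havcr1, Lcn2 and the means of the heat shock and adrenal cortex lists, also minus group means (horizontal, log2); circles are NZB/W and squares NZM2410 kidneys. The 3 highest kidneys, at 0.82 to 1.0 on the vertical axis, lie on both sides of the vertical line for Havcr1, and the slopes of these means were not tested.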

How the data were processed

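The authors deposited log2 expression values from Affymetrix arrays of whole-kidney RNA, computed with RMA (version not given in the sources used here) as 1 probe set per Entrez gene, and, per the study's methods, all arrays went through normalization and batch correction as 1 set. Which arrays formed a batch is not given in the sources used here. Of 16539 probe sets, 64 array controls and 695 without a single gene name were left out, leaving 15780 genes. The number of arrays per group limits the precision, and array depth does not apply. Whether replicates came from separate cages or litters is not stated, so p-values measure the spread between these kidneys.

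For each comparison only its own kidneys entered limma 3.58.1 (lmFit and eBayes in R 4.3.3), two-sided, with Benjamini-Hochberg adjustment over the 15780 genes and a threshold of 0.05. Correlations used Python 3.11.15 with scipy 1.17.1, group means removed and 100000 permutations within groups. Named genes were the 10 members, Havcr1, Lcn2, of each other list the genes past the threshold or else the 3 with the largest difference (a selection is printed), and the 10 genes closest to the members' mean. Members and lists were chosen with earlier results of these data known. The SAM permutations of the study would regroup the samples and were not run here. Scripts were tested on simulated data. Alternatives were a joint fit, renewed quantile normalization, median centring, weights per array, leaving out the dimmest tertile of genes, robust eBayes with a trend on intensity, a replicate block, leaving out each kidney, leaving out shared mouse codes, and using mouse codes that start with BG alone. For correlations they also included leaving out extreme kidneys, leaving out the late triple therapy group, and adding the NZM2410 kidneys.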

Additional observations from a re-analysis of the deposited data

Results flagged for a closer look

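In 55 tests by Dixon's ratio, over the 10 members and their mean in 5 groups, 11 had a kidney set apart from the others at the 95% level, where chance gives about 1 in 20 tests. TACI-Ig replicate 4 was above its group for Fosb (5.50, others 4.77 to 4.91), Egr1 (10.97, others 7.67 to 8.55), Ier2 (8.28, others 7.19 to 7.48), Nr4a1 (9.96, others 7.96 to 8.53) and the mean of the members (0.74, others -0.64 to -0.30). Early remission replicate 2 was above its group for Junb (8.28, others 6.86 to 7.23) and Ier2 (8.68, others 7.10 to 7.65). Fosb in late triple therapy replicate 6 was 5.47 (others 4.61 to 4.92). Junb in NZM2410 replicate 3 was 8.55 (others 7.30 to 7.70). Low values were seen at 30 weeks for Jun in replicate 2 (8.11, others 8.56 to 8.85) and Nr4a1 in replicate 7 (7.88, others 8.74 to 9.20). The tests of 1 kidney are not independent of each other, since its members move together.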

How the results depend on the processing

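Of 1772 values recomputed, 1621 kept direction and side of the threshold or moved within the spread, 103 changed sign, 32 moved further, 10 lost a call and 6 gained one. The differences that changed sign were not called, and the cause was not tested unless stated. Genes called between early remission and 30 weeks numbered 3 in the joint fit and 123 with array weights against 0, and 0 to 12 without single kidneys (12 without 30-week replicate 2, 10 without early remission replicate 8). Between TACI-Ig and 30 weeks they numbered 1 with the replicate block and 0 to 1309 without single kidneys, against 0 (1309 without TACI-Ig replicate 2, 4 without 30-week replicate 7). For triple therapy, late against early remission, they numbered 1 in the joint fit, 0 after quantile normalization, 65 with array weights, 7 with an intensity trend, 1 with the replicate block and 0 to 32 without single kidneys, against 11 (27 and 30 without early remission replicates 2 and 8, 32 and 4 without late triple therapy replicates 8 and 11, and 0 without early remission replicates 3 to 7 or late triple therapy replicates 6, 7, 9 or 10). Between late triple therapy and TACI-Ig the joint fit called 0 against 12. For NZM2410 against TACI-Ig, 5331 were called with the dimmest tertile left out, where fewer genes were tested, against 9388.

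Replicate numbers did not pair kidneys, since same-numbered kidneys deviated together with r from -0.71 to 0.34, and they are a number alone. The replicate block moved the members' median from -0.07 to 0.53 for late triple therapy against 30 weeks (Fos 1.55, Jun 0.53, Junb 0.81, Egr1 1.30, Ier2 0.54, Nr4a1 0.61) and from 0.05 to 0.64 against early remission (Fos 0.81, Egr1 0.71), where by construction it rests on the few numbers these groups share. It gave Ier3 -0.076 for TACI-Ig against 30 weeks and Atf3 -0.12 for NZM2410 against TACI-Ig, and changed no call of a member. No paired fit was possible for late triple therapy against TACI-Ig because they share no number.

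Other differences that changed sign were these. Early remission against 30 weeks gave Egr1 -0.010 after quantile normalization, Fos -0.14 and Egr1 -0.15 with array weights, and Fos -0.094 and Egr1 -0.19 without the shared mouse code. Late triple therapy against 30 weeks gave Ier3 -0.00387 with median centring and -0.079 with array weights, and against early remission Nr4a1 -0.00223 and Dusp1 -0.000123 with median centring and -0.022 and -0.091 with array weights. Against TACI-Ig it gave Junb -0.017 with array weights. NZM2410 against TACI-Ig gave Atf3 -0.013 after quantile normalization and -0.060 with median centring.

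Leaving out single kidneys gave these ranges. Early remission against 30 weeks had Fos -0.19 to 0.38, Egr1 -0.23 to 0.21 and Dusp1 -0.35 to 0.018. TACI-Ig against 30 weeks had Ier3 -0.072 to 0.12 and Jun -0.34 to 0.0033. Late triple therapy against 30 weeks had Fosb -0.028 to 0.14, Jun -0.25 to 0.045, Junb -0.19 to 0.018, Ier2 -0.24 to 0.014, Ier3 -0.11 to 0.13, Nr4a1 -0.25 to 0.052 and Dusp1 -0.33 to 0.040. Late triple therapy against early remission had Fosb -0.068 to 0.10, Egr1 -0.49 to 0.0069, Ier2 -0.12 to 0.21, Nr4a1 -0.16 to 0.16 and Dusp1 -0.14 to 0.14. Late triple therapy against TACI-Ig had Jun -0.090 to 0.28, Junb -0.038 to 0.33, Ier2 -0.060 to 0.30, Ier3 -0.12 to 0.13, Nr4a1 -0.080 to 0.44 and Dusp1 -0.022 to 0.31. NZM2410 against TACI-Ig had Atf3 -0.13 to 0.19 and Nr4a1 -0.38 to 0.12.

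The members' median also crossed 0 without single kidneys for late triple therapy against 30 weeks (-0.22 to 0.02), early remission (-0.08 to 0.15) and TACI-Ig (-0.06 to 0.30).

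Pairs of members that passed numbered 18 without the 3 highest kidneys against 34. Marker relations that passed numbered 1 without the 2 farthest kidneys and 0 to 1 without single kidneys (1 without TACI-Ig replicate 4), against 0.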
